A study of Mus musculus with 2 samples.

Results

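The genes described here encode the degradative enzymes, membrane proteins and proton pump of the lysosome in mouse bone marrow-derived macrophages, read in 1 KO and 1 WT library. They were chosen by name, as 41 symbols, and kept where the mean FPKM of both libraries was at least 1. FPKM is the number of sequenced fragments of a gene corrected for its length and for library depth. Of the 41 symbols 40 passed, among 10536 of 40017 symbols in the table. Neu1, a sialidase gene with repeat rows, did not pass in any of its rows. Of the 40, 37 have a single row in the table. The other 3, Asah1, Atp6v1c1 and Atp6v1e1, have numbered repeat rows and are kept apart.

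The study asked what loss of SPP1 (osteopontin) does to macrophages. The WT library comes from SPP1fl/fl mice, and the KO library from SPP1fl/fl-Lyz2-icre mice, in which a Cre under the myeloid gene Lyz2 acts on the same floxed allele. Both groups thus carry the floxed Spp1 allele, and both cultures had 5 days with M-CSF, the macrophage growth factor, at 20 ng/ml. The number, sex and age of the mice behind each library were not stated. With 1 library per genotype there is no replicate, so no test and no error can be given, and every value below compares 2 libraries.

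The lysosome is the acidic compartment in which cells digest material taken up from outside or delivered by autophagy. Its lumen holds proteases (cathepsins), glycosidases and lipid hydrolases that work best at low pH. That pH is set by the vacuolar ATPase (V-ATPase), a rotary pump whose cytosolic V1 sector splits ATP and whose membrane V0 sector moves protons. Macrophages are rich in lysosomes, which serve the digestion of microbes and dead cells and the cutting of peptides for antigen display. Many lysosome genes are known targets of the transcription factors TFEB and TFE3, which bind the CLEAR element, an E-box with the core CACGTG.

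The promoters of these genes are shown first because they hold the letters that many lysosome genes share. The genes were chosen by name, and many lysosome genes are known CLEAR targets. A raised share of the core among them is therefore not an independent result. RefSeq promoters (build GRCm38.p6) matched 34 of the 40 genes, and the 250 bases before each annotated start were searched. The core CACGTG, which reads the same on both strands, was found before 11 of the 34 genes, or 32.4%. The same core stood before 10.5% of 8348 genes past the filter and before 6.86% of all 27025 genes in the promoter table. It occurred at least 2 times before 5 of the 34 genes, against 1.04% of the genes past the filter. The longer palindrome in which GT precedes and AC follows CACGTG stood before 0 of the 34 and before 0.683% of the genes past the filter. An interferon response type motif, GAAA, any NN and GAAA on either strand, stood before 3 of the 34 genes and before 3.46% of the genes past the filter. The longer palindrome contains CACGTG, and before these genes no interferon type motif overlapped an E-box. A match is a description of letters and does not show that a factor binds there.

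The 5 promoters with repeated E-boxes follow, with those of Ctss and Atp6v1f, the single-row genes with the highest KO to WT ratios. Capitals mark each CACGTG and each interferon type motif, and each stretch ends with the base before the RefSeq start. GENCODE M21 places the outermost start of Ctsd, Gla, Mcoln1, Atp6v0b and Atp6v1f further upstream, within the stretch shown. They lie at chr8:13158911-13159160 (plus strand) for Lamp1, chr7:142387828-142388077 (minus) for Ctsd and chrX:134601006-134601255 (minus) for Gla. Those of Mcoln1, Atp6v0b, Ctss and Atp6v1f lie at chr8:3500269-3500518 (plus), chr4:117887330-117887579 (minus), chr3:95526536-95526785 (plus) and chr6:29467533-29467782 (plus).
Lamp1: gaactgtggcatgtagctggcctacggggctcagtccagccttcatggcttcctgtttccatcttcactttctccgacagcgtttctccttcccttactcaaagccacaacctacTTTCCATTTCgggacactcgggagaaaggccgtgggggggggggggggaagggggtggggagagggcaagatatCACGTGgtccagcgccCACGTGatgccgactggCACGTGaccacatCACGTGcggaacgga
Ctsd: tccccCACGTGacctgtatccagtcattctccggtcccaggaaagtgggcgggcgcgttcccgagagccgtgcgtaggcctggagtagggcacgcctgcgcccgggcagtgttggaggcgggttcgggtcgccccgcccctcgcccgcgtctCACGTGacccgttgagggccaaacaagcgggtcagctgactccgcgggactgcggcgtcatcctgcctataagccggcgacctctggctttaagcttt
Gla: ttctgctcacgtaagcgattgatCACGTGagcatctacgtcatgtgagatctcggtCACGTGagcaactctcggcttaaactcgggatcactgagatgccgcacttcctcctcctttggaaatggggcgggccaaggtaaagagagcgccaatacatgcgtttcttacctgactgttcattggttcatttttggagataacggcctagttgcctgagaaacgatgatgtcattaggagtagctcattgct
Mcoln1: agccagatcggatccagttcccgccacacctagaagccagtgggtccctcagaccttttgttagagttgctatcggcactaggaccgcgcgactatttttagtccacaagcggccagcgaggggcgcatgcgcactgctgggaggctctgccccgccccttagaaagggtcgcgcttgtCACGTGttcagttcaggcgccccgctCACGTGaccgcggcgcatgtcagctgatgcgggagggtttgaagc
Atp6v0b: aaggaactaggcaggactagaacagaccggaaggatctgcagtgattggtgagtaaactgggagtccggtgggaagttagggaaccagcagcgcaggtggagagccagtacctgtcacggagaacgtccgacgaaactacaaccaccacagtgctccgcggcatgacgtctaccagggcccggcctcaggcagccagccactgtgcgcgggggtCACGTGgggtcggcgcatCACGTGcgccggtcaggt
Ctss: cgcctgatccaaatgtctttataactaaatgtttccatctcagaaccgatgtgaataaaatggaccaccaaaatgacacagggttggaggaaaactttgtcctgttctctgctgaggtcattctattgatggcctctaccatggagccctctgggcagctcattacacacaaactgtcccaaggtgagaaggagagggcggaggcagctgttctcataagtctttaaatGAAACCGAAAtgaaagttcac
Atp6v1f: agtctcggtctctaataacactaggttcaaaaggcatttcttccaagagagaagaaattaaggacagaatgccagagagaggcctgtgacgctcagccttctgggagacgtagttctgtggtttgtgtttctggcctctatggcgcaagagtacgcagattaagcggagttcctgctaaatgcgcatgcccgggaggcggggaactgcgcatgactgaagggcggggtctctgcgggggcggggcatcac
Lamp1 had 4 cores within the last 61 bases before its start, and Ctss had none but held the interferon type motif from base -21 to -12. Atp6v1f held neither motif.

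**Figure D1:**
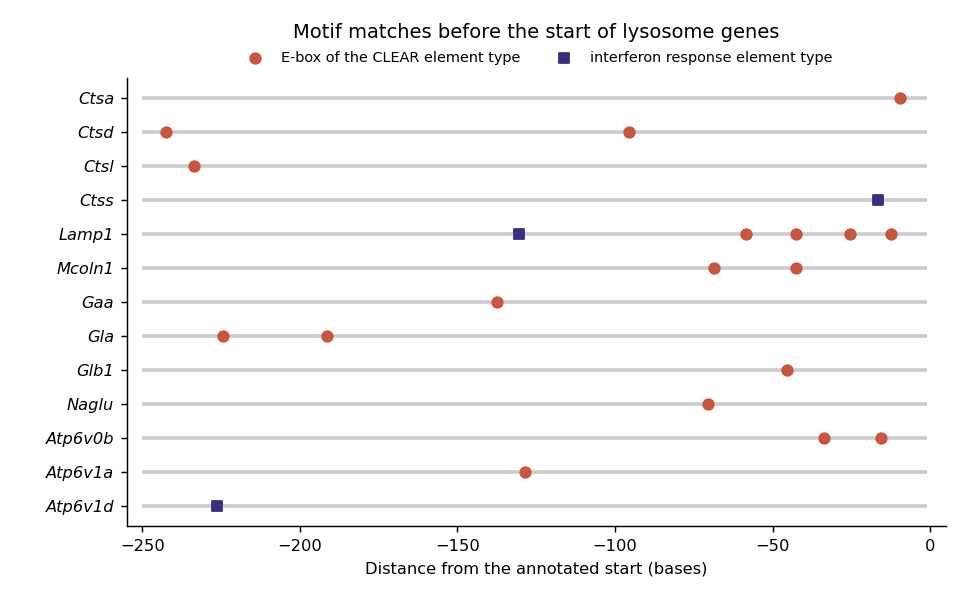
Positions of the 2 motif types in the 250 bases before the annotated start of the 13 lysosome genes that hold at least 1 of them. The x axis is the distance from the start in bases, circles are CACGTG cores and squares are interferon type motifs. Lamp1 holds 4 cores, and Ctsd, Gla, Mcoln1 and Atp6v0b hold 2 each.

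The targeted gene Spp1 stood at 11.3 FPKM in KO against 4006 in WT. Lyz2, the driver gene, which encodes lysozyme, stood at 13539 FPKM in KO against 29499 in WT. Lyz2 made up 3.21% of all FPKM in KO and 6.93% in WT, so the values were also read with sums made equal without Spp1 and Lyz2. The most common ratio of the lowest values put the depth of WT at 1.308 times that of KO. All 8 macrophage markers passed the filter, from 30.1 FPKM to 1684 FPKM in KO and from 34.7 to 1825 FPKM in WT. Of the other lists, B cell markers summed to 3.31 FPKM in KO and 2.28 in WT, and neutrophil markers to 3.19 and 1.71 FPKM, with Ly6g, Camp and Elane at 0 in both. T cell markers summed to 8.65 FPKM in KO and 10.9 in WT, nearly all from Cd4, with Cd3d, Cd3e and Cd8a at 0 in both. Dendritic cell, NK cell and erythroid markers summed to between 0.551 and 1.08 FPKM in each library, and mast cell markers to 4.07 FPKM in KO and 5.54 in WT. Endothelial markers summed to 20.3 FPKM in KO and 13.6 in WT, nearly all from Kdr, and osteoclast markers, which include Atp6v0d2, to 221.2 and 234.6 FPKM. Monocyte markers summed to 31.3 and 24.4 FPKM, and stromal fibroblast markers to 4.08 FPKM in KO and 9.18 in WT. Their part in the values below was not tested. In bulk RNA, fewer cells of a type and less RNA per cell cannot be told apart.

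Some lysosome genes, led by Ctsd, Psap and Ctsb, were among the most abundant transcripts of both libraries. Others ranked far lower, down to Tfeb at number 2720 in KO and 2700 in WT. The single-row genes differed little between the libraries. The 37 single-row genes summed to 37627 FPKM in KO and 34501 in WT, which is 8.92% and 8.10% of all FPKM. Both totals include Lyz2 and Spp1, whose smaller share in KO leaves more of the total to other genes. Shares without them were not computed. None of the 37 was higher or lower in KO by the 1.5-fold rule of size, on the scale of log2(FPKM + 1). Of all 10179 single-row symbols past the filter, 2.60% were higher and 0.845% lower by that rule. At a rule of 25% on that scale 2 genes were higher, Atp6v1f and Ctss, and none was lower, where 6.82% and 3.88% of all single-row symbols passed. Among single-row symbols with a mean of at least 50 FPKM those shares were 9.26% and 1.68%. In direction, 26 of the 37 were higher in KO (70.3%) against 47.1% of all single-row symbols and 56.2% of those with a mean of at least 50 FPKM. With equal summed FPKM without Spp1 and Lyz2, these became 20 of 37 (54.1%), 34.5% and 40.3%. The median difference was 0.07, against -0.01 over all single-row symbols, and 0.01 against -0.06 under that scaling. The differences ran from -0.21 to 0.35.

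**Figure D2:**
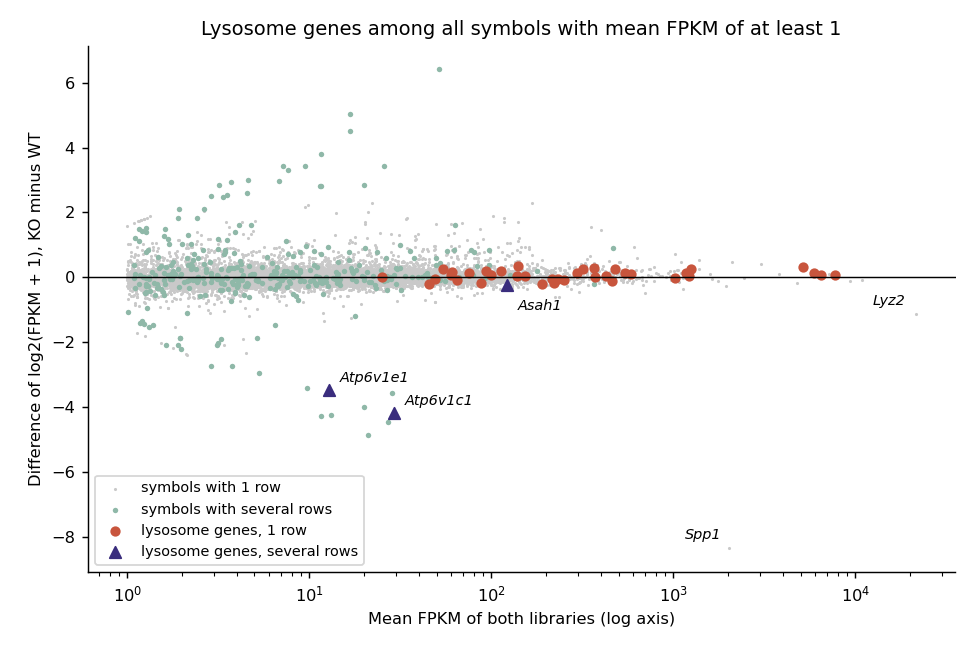
Each point is a symbol with a mean of at least 1 FPKM. The x axis is the mean FPKM of both libraries on a log axis and the y axis the difference of log2(FPKM + 1), KO minus WT. The 37 single-row lysosome genes lie between -0.21 and 0.35, while Atp6v1c1 and Atp6v1e1, which have several rows, lie at -4.17 and -3.46.

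Cathepsins, the proteases of the lysosome, made up most of the summed FPKM of the 37 single-row genes. The 8 cathepsin genes summed to 22287 FPKM in KO and 20080 in WT, 5.28% and 4.72% of all FPKM, Lyz2 and Spp1 included. Ctsd, the aspartic protease, stood at 7855 FPKM in KO against 7495 in WT and was number 4 of all symbols in both libraries. Ctsb, a cysteine protease that also trims peptides from chain ends, stood at 6184 FPKM in KO against 5622 in WT, number 7 in both. Ctss followed at 5737 FPKM in KO against 4574 in WT. It encodes the cysteine protease that cleaves the invariant chain of MHC class II in antigen-presenting cells. Its KO level was 125.4% of the WT level (difference 0.33), the widest gap among the cathepsins. The Ctss gene lies on chromosome 3, 95526786 to 95556403, plus strand, and spans 1358 bases of exon in GENCODE M21 on GRCm38.

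The remaining cathepsins were lower in level, and each had a smaller difference than Ctss. Ctsz, a carboxypeptidase, stood at 1225 FPKM in KO against 1107 in WT. Ctsl, a cysteine endopeptidase, stood at 431.7 and 418.7 FPKM, and Ctsh, an aminopeptidase, at 309.3 and 284.5 FPKM. Ctsc, which activates serine proteases of granules, was the lowest cathepsin at 102.0 FPKM in KO against 97.02 in WT. Only Ctsa among the 8, which encodes the protective protein of beta-galactosidase and neuraminidase, was lower in KO, at 442.7 against 482.2 FPKM. Under the scaling without Spp1 and Lyz2, Ctsl was lower as well, so that 6 of 8 were higher. Among single-row symbols with a mean of at least 50 FPKM, 56.2% were higher as deposited and 40.3% under that scaling.

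Glycosidases, which take sugars off glycoproteins, glycolipids and glycosaminoglycans, were higher in KO in 6 of 7 single-row genes under each scaling tried. Among single-row symbols with a mean of at least 50 FPKM, between 40.3% and 59.6% were higher, depending on the scaling. Their median difference was 0.15, and their sum was 1890 FPKM in KO and 1696 in WT. Hexa, the alpha chain of beta-hexosaminidase, had the highest level, 608.1 FPKM in KO and 566.6 in WT, followed by Gusb, beta-glucuronidase, at 572.0 and 516.4 FPKM. Man2b1, the lysosomal alpha-mannosidase (chromosome 8, 85083270 to 85098282, plus strand), stood at 403.6 FPKM in KO against 330.1 in WT, 122.3% of the WT level. Its difference of 0.29 was the third largest upward one among the 37 genes.

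The other glycosidase genes lay near or below 100 FPKM. Gla, alpha-galactosidase, whose promoter has 2 E-box cores, stood at 99.0 FPKM in KO against 86.9 in WT. Naglu, which acts on heparan sulfate, stood at 79.7 and 71.9 FPKM, and Glb1, beta-galactosidase, at 64.7 and 57.5 FPKM. Gaa, the acid alpha-glucosidase that breaks down glycogen, was the only one lower in KO, at 63.1 against 67.1 FPKM. Neu1, the sialidase that forms a complex with the Ctsa and Glb1 products, has 4 rows, the highest of which held 0.239 FPKM in KO and 0.274 in WT. The level of Neu1 is uncertain, since the origin of repeat rows was not stated, and absence of its transcript cannot be read from these values.

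Among the other lumenal proteins, Psap was the most abundant. It encodes prosaposin, the precursor of the saposins that present sphingolipids to their hydrolases. Psap stood at 6633 FPKM in KO against 6278 in WT, number 6 of all symbols in both. Grn, progranulin, stood at 1368 FPKM in KO against 1135 in WT, a difference of 0.27. Tpp1, a tripeptidyl peptidase, was lower in KO at 207.2 against 232.6 FPKM, a difference of -0.17 and the third largest downward one. Over the 18 single-row cathepsins, glycosidases and lumenal proteins together, 15 were higher in KO (83.3%), and 14 (77.8%) under the scaling without Spp1 and Lyz2. Among single-row symbols with a mean of at least 50 FPKM these shares were 56.2% and 40.3%. With FPKM as deposited, the sum of the 18 in KO was 1.10 times that in WT.

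Membrane proteins of the lysosome differed in both directions, with 3 of 5 higher in KO, or 2 of 5 with sums equal without Spp1 and Lyz2. Of all single-row symbols 47.1% and 34.5% were higher, and of those with a mean of at least 50 FPKM 56.2% and 40.3%. Lamp1, the main glycoprotein of the membrane, stood at 1238 FPKM in KO against 1202 in WT, and the tetraspanin gene Cd63 at 1010 and 1027 FPKM. The difference of Lamp1 was 0.04 and turned negative without Spp1 and Lyz2 in the sums. Lamp2, which also serves chaperone-mediated autophagy, stood at 350.3 FPKM in KO against 291.0 in WT. Scarb2, the receptor that carries glucocerebrosidase to the lysosome, stood at 59.3 and 49.0 FPKM. Lamp2 and Scarb2 both had a difference of 0.27. Mcoln1, the calcium channel TRPML1, was the lowest in level and had the largest downward difference of the 5, at 41.96 FPKM in KO against 48.5 in WT (-0.20).

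The transcription factor genes of the system were at the low end of the group and close to equal. Tfe3 stood at 48.5 FPKM in KO against 49.8 in WT. Tfeb had the lowest level of the 37 genes, 25.1 FPKM in KO and 24.8 in WT, lower in KO with sums equal without Spp1 and Lyz2 or by upper quartile, and the mean of Ctsd was 308 times that of Tfeb. These factors are known to be controlled through their location in the cell, which RNA levels do not show. The 11 single-row genes with a CACGTG core had a median difference of 0.04, with 7 higher and 4 lower. The 22 without a core had a median of 0.09, with 15 higher and 7 lower. Of all single-row symbols 47.1% were higher, and 56.2% of those with a mean of at least 50 FPKM. The 3 genes with the interferon type motif, Ctss (0.33), Lamp1 (0.04) and Atp6v1d (-0.16), had a median of 0.04, against 0.07 over the 30 without it.

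**Figure D3:**
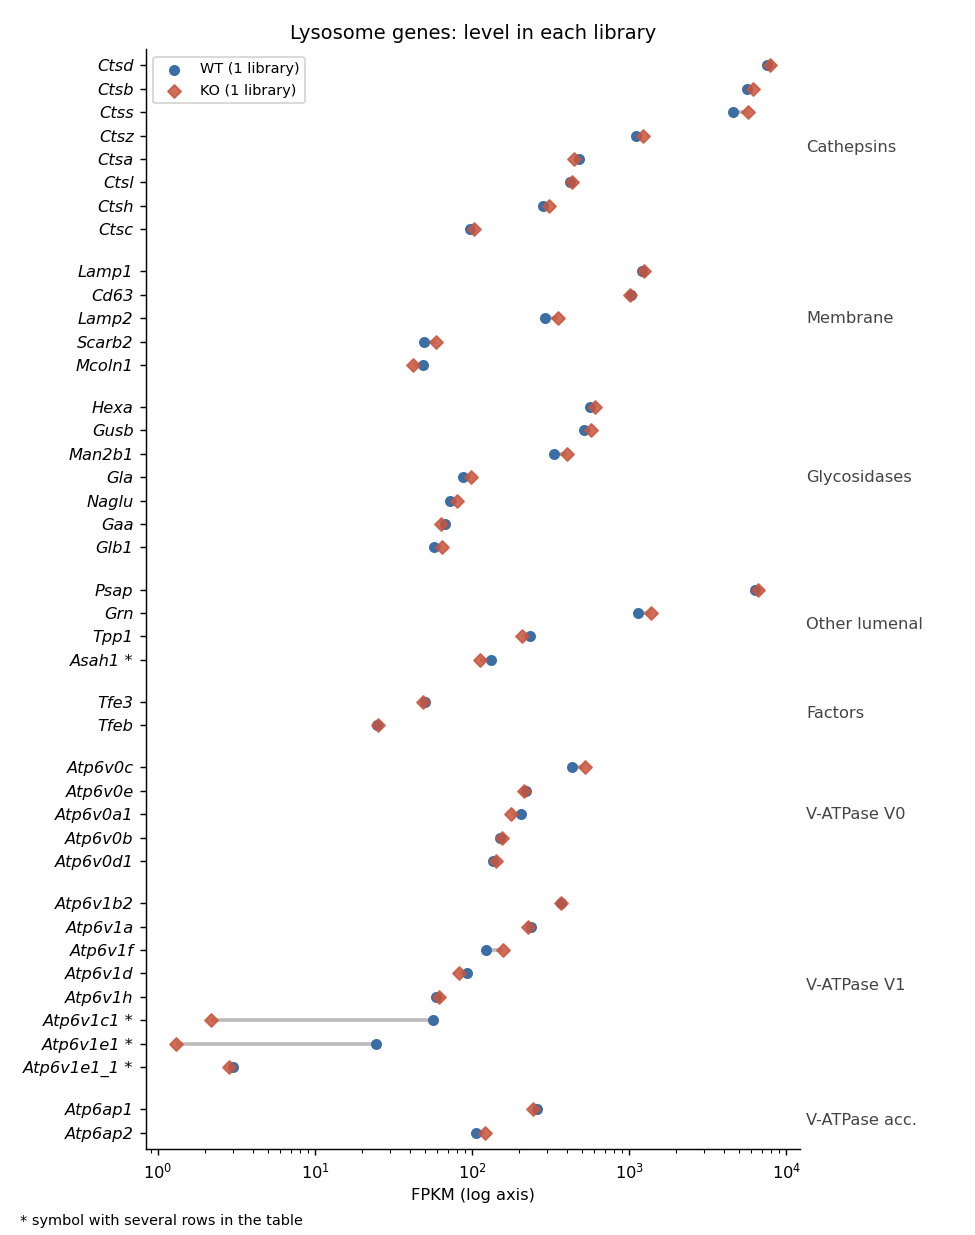
FPKM of each lysosome gene past the filter in the WT library (circles) and the KO library (diamonds), on a log axis, grouped by role and ordered by mean level. Ctsd, Psap, Ctsb and Ctss have the highest levels in both libraries, and Atp6v1c1 and Atp6v1e1, marked as having several rows, are the farthest apart.

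Genes of the V-ATPase with a single row had a smaller share of the transcript than the enzymes and were near level. The 12 genes summed to 2468 FPKM in KO and 2386 in WT. In direction 7 were higher (58.3%) and 5 lower, with a median of 0.02. Under the scaling without Spp1 and Lyz2 4 were higher (33.3%) and 8 lower, since Atp6v0b, Atp6v0d1 and Atp6v1b2 turned lower. Among all single-row symbols 47.1% were higher as deposited and 34.5% under that scaling. Among those with a mean of at least 50 FPKM, which all 12 genes reach, the shares were 56.2% and 40.3%. In the V0 sector, Atp6v0c, which encodes the proteolipid of the proton-carrying ring, had the highest level at 519.8 FPKM in KO against 432.7 in WT (0.26). The other ring subunit gene, Atp6v0b, stood at 154.9 and 150.7 FPKM, and the small subunit gene Atp6v0e at 213.0 and 220.0 FPKM. Atp6v0d1, which links the ring to the central stalk, stood at 141.3 and 136.0 FPKM. Atp6v0a1, a form of the large subunit with the proton channels, was lower in KO, at 175.8 against 203.4 FPKM. Its difference of -0.21 was the largest downward one among the 37 genes.

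In the V1 sector, the subunits of the ATP-splitting head were level. Atp6v1b2 stood at 370.4 FPKM in KO against 368.9 in WT, and the catalytic subunit gene Atp6v1a at 228.4 and 236.4 FPKM. Atp6v1f, a subunit of the rotor (chromosome 6, 29467718 to 29470512, plus strand), stood at 157.4 FPKM in KO against 123.1 in WT. Its difference of 0.35 was the largest of the 37, and its KO level was 127.8% of WT. The rotor partner Atp6v1d went the other way, at 82.6 FPKM in KO against 92.3 in WT (-0.16). Atp6v1h, a regulatory subunit, stood at 61.6 and 59.0 FPKM. The accessory gene Atp6ap1 stood at 242.7 FPKM in KO against 257.9 in WT, and Atp6ap2, the prorenin receptor, at 120.6 and 105.9 FPKM.

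Atp6v1f is a short gene, with 1063 bases of exon, and across 9847 single-row symbols the difference ran against exon length with a Spearman rho of -0.16. With that trend removed, Atp6v1f had a difference of 0.28, the same as Ctss at 0.28, and Man2b1, with 8026 bases of exon, had the largest difference at 0.33. Over the 37 genes the rho with length was -0.31, a description over genes of the same pair of libraries.

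**Figure D4:**
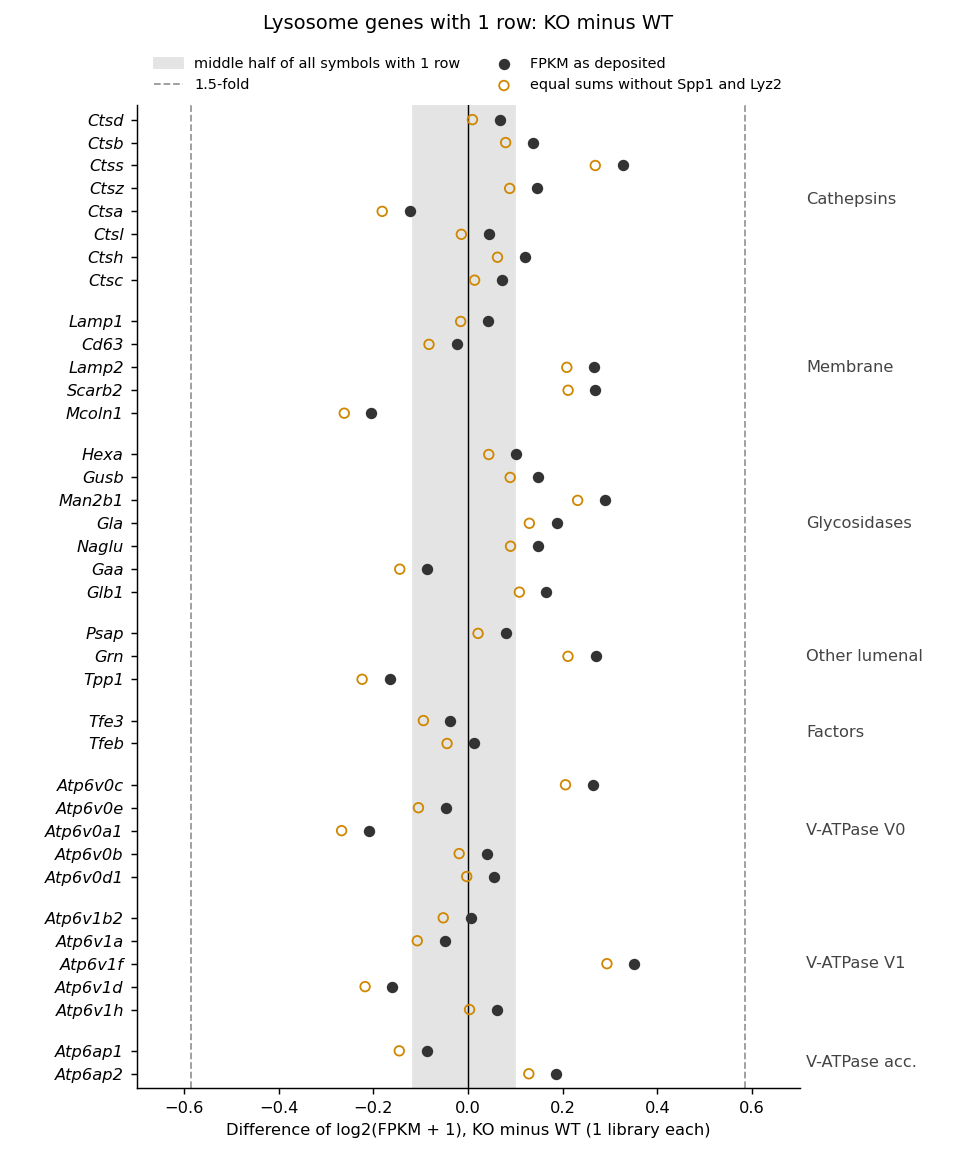
Difference of log2(FPKM + 1), KO minus WT, for the 37 single-row lysosome genes by role. Filled points use the FPKM as deposited and open points equal sums without Spp1 and Lyz2, which moves every gene by about -0.06. The grey band is the interquartile range of all single-row symbols, from -0.12 to 0.10, and no gene reaches the dashed 1.5-fold lines.

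Among the genes with repeat rows, Atp6v1c1 and 1 row of Atp6v1e1 stood apart from the rest of the pump. Atp6v1c1, a subunit of the peripheral stalk that controls assembly of V1 on V0 (chromosome 15, 38661933 to 38692446), stood at 2.18 FPKM in KO against 56.3 in WT, 3.87% of the WT level. Its second row was listed at 0 in both libraries. Atp6v1e1, another peripheral stalk subunit (chromosome 6, 120794305 to 120822793), stood at 1.30 FPKM in KO against 24.3 in WT in one row. Its other row held 2.81 FPKM in KO and 3.02 in WT. Both genes passed the 1.5-fold rule as lower. Among the 357 symbols with several rows past the filter, 9.80% were lower and 21.3% higher by that rule, against 0.845% and 2.60% of single-row symbols. The values of both genes are therefore uncertain, since the origin of repeat rows was not stated. Asah1, acid ceramidase, also has 2 rows, and its values carry the same uncertainty. Its main row held 111.9 FPKM in KO and 132.6 in WT (-0.24), and its other row held 0.749 and 0.476 FPKM.

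The libraries also held transcripts of subunit forms outside the chosen set. For the large V0 subunit, Tcirg1, the form known from osteoclasts, stood at 353.9 FPKM in KO against 316.2 in WT, above Atp6v0a1 in both libraries. Atp6v0a2 stood at 17.03 and 14.4 FPKM, and Atp6v0a4, a kidney form, was listed at 0 in both. Atp6v0d2, another form known from osteoclasts, stood at 163.3 FPKM in KO against 178.7 in WT, close to Atp6v0d1. Of the stalk subunit G, Atp6v1g1 stood at 166.0 and 150.0 FPKM. Atp6v1c2 and Atp6v1e2, the alternative forms of the subunits with repeat rows, were listed at 0 in both libraries.

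**Figure D5:**
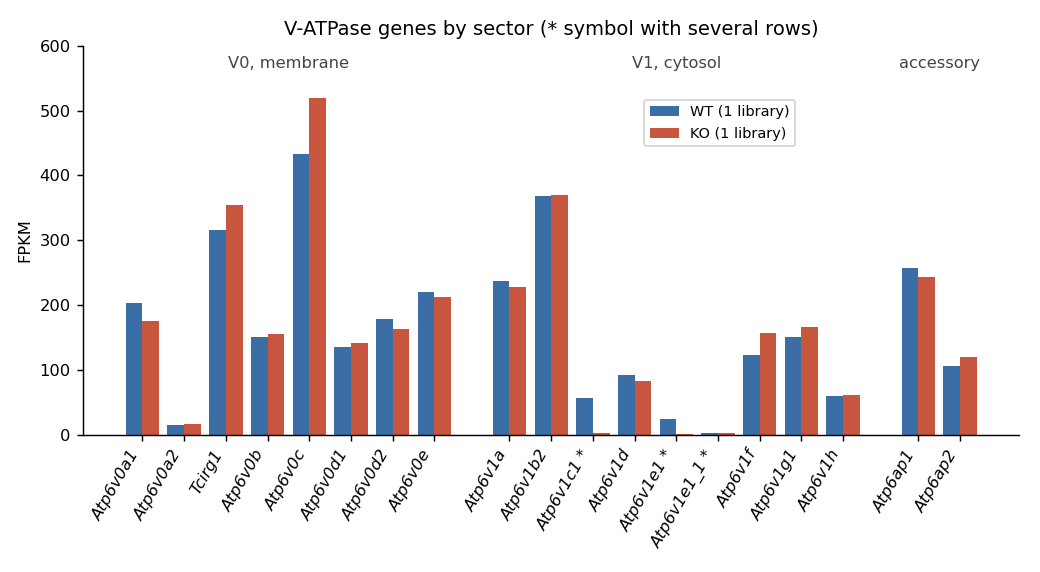
FPKM of V-ATPase genes in the WT library (blue bars) and the KO library (red bars), by sector, with the expressed alternative forms Atp6v0a2, Tcirg1, Atp6v0d2 and Atp6v1g1. The bars of Atp6v1c1 and the first row of Atp6v1e1, symbols with several rows, have the widest ratios, at 3.87% and 5.35% of WT.

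The rest of the lysosome pathway was read from 11 lists with 169 genes, of which 144 had a single row and passed the filter. On the scale of log2(FPKM + 1), none of the 144 was higher or lower by the 1.5-fold rule, which 2.60% and 0.845% of all single-row symbols passed. Without the added 1 FPKM, the KO to WT ratios of Rnaset2b (1.502), Arsg (0.642) and Wipi1 (0.648) lay beyond 1.5-fold. The median difference of the 144 was 0.01. The other 8 proteases had a median of 0.15, led by the aspartic protease gene Napsa (78.1 FPKM in KO, 52.9 FPKM in WT) and Ctse (8.21 and 6.25 FPKM). The 13 lipid and nucleic acid hydrolases and activators had a median of 0.12. In that list the cholesterol-binding protein gene Npc2 stood at 582.2 FPKM in KO against 419.6 in WT, and the ribonuclease gene Rnaset2b at 54.4 and 36.2 FPKM. Rnaset2b has a close paralog in Rnaset2a (55.6 and 47.4 FPKM), with which it can share reads. The 21 further glycosidases and sulfatases had a median of 0.05, with the sulfatase gene Arsg at 1.63 FPKM in KO against 2.54 in WT.

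Inhibitors of the cathepsins were read as well, and 4 of 9 passed the filter. Cst3, cystatin C, a secreted inhibitor of cysteine cathepsins, stood at 1630 FPKM in KO against 1118 in WT, a difference of 0.54. Cstb, the intracellular cystatin, with 603 bases of exon, stood at 540.2 and 485.2 FPKM (0.15). With the length trend removed, the difference of Cstb was 0.03 and that of Cst3 0.49. Serpinb6a was lower in KO, at 267.7 against 303.3 FPKM (-0.18). Cst7, the lowest of the 4 in level, stood at 3.30 FPKM in KO against 2.72 in WT (0.21), or 0.13 with the length trend removed. Under each scaling tried, 3 of the 4 were higher in KO. Of all single-row symbols, 47.1% were higher as deposited and 34.5% with sums equal without Spp1 and Lyz2. Among those with a mean of at least 50 FPKM, which Cst7 does not reach, between 40.3% and 59.6% were higher, depending on the scaling. A count over 4 genes is too small to set against these shares.

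The lists of membrane proteins, trafficking and control had medians from -0.08 to 0.08. With sums equal without Spp1 and Lyz2 the medians of the further glycosidases (-0.01) and membrane proteins (-0.02) turned negative. They stayed above the median over all single-row symbols, -0.06 under that scaling. Of the 10 sorting genes 0 were then higher, against 4 as deposited. Among all single-row symbols 34.5% and 47.1% were higher under these scalings. The 26 further membrane proteins had a median of 0.03, with the chloride transporter gene Clcn7 at 95.5 FPKM in KO against 81.7 in WT and Sidt2 at 27.9 and 33.2 FPKM. The 10 further V-ATPase subunits and assembly factors had a median of 0.08. The 16 genes of TFEB and mTORC1 control had a median of -0.01, with Lamtor2 of the Ragulator complex at 61.2 and 74.8 FPKM. The 10 genes of mannose 6-phosphate tagging and sorting, which deliver the hydrolases, had a median of -0.02, with Sort1 at 25.9 and 32.0 FPKM. The 11 genes of late endosome tethering and transport had a median of -0.01, with Arl8a at 75.2 and 82.6 FPKM, and the 7 genes of the damage response -0.02, with Chmp4b at 182.1 and 155.1 FPKM. Autophagy genes had the lowest median of the 11 lists, -0.08 over 18 genes. Of these, 12 were lower in KO, among them Wipi1 (2.58 and 3.98 FPKM) and Map1lc3a (15.2 and 19.6 FPKM). The 6 higher in KO were 33.3% of the list, against 47.1% of all single-row symbols. Under the scaling without Spp1 and Lyz2 14 of the 18 were lower and 4 higher. These 4 were 22.2%, against 34.5% higher among all single-row symbols. Of the 11 pathway genes with several rows, the cystine transporter gene Ctns, chosen after its values were seen, went in opposite ways in its rows. One row of Ctns held 0.577 FPKM in KO and 5.64 in WT, the other 1.56 FPKM in KO and 0.0870 in WT.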

How the data were processed

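RNA-seq values were the authors' deposited FPKM, 1 table with 42396 rows and a column for each of the 2 samples, matched by title. RSEM, DESeq2 and the build mm10 appear in the submitters' processing notes without role or version, and no source names an aligner, annotation or filter. There are 2 further value columns, headed WT-CM and KO-CM, which match no sample's labels and were not used.

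For a symbol with several rows the row with the highest mean was kept for the counts over all symbols. Differences were log2(FPKM + 1), KO minus WT, which understates changes of low genes. Symbols with a mean of at least 1 FPKM were kept, and a difference of at least 1.5-fold was counted, a rule of size without a test. The counting step was checked on simulated data with planted 2-fold changes in single-row genes. That check does not cover repeat rows or the spread between cultures. Depth was read from the lowest values of single-transcript genes, whose steps clustered at 17.8 M and 35.5 M reads or fragments in KO and 23.4 M and 46.9 M in WT. Which cluster is 1 read is not settled. At the lower depths the least covered of the 37 single-row genes rests on about 2522 reads, so counting error is small there, but the spread between cultures is unknown. Exon lengths and gene positions are from GENCODE M21 (GRCm38, the mm10 build) and promoters from RefSeq. The length trend was a lowess fit (statsmodels 0.14.6, fraction 0.3). Python 3.11.15, pandas 2.3.3 and numpy 2.4.6 were used.

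Named genes were all members, with up to 4 of the largest differences in each further list, Spp1, Lyz2 and expressed or silent V-ATPase forms. The members and lists were chosen with earlier results of these data known.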

Additional observations from a re-analysis of the deposited data

How the results depend on the processing

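The median moved most with scaling, and the counts moved with the size rule and with the repeat rows. The median difference of 0.0676 became 0.0805 with equal summed FPKM, 0.0815 with median ratio scaling, 0.0386 with upper quartile scaling and 0.00938 with equal summed FPKM without Spp1 and Lyz2. It was 0.0578 with members with repeat rows included, by either way of joining rows, and 0.0777 with the length trend removed. Pseudocounts of 0.1 and 5 FPKM, no filter, a mean of at least 5 FPKM and the mean in place of the median left it at 0.07 when rounded. The scaling without Spp1 and Lyz2 changed the sign of 6 of the 37 genes, upper quartile scaling of 2 and length correction of 1. The count of higher genes, 0 at 1.5-fold, was 2 at a rule of 25% and 0 at 2-fold. The count of lower genes, 0 among single-row genes, was 2 (Atp6v1c1 and Atp6v1e1) with repeat rows included and 0 under each other alternative. No paired analysis was possible because each genotype has 1 library. No library could be left out for the same reason. Differences of the size seen here cannot be told apart from the spread between cultures, which is not known.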
